A study of Rattus norvegicus with 34 samples.

Results

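The response to a large myocardial infarction was compared between 2 tissues of the rat, the left ventricle (LV) and peripheral blood mononuclear cells (PBMCs), as a difference of differences: the change from sham to large infarct (L-MI) in LV minus the same change in PBMCs. The comparison used 22 of the 34 arrays of the series, namely 6 sham and 5 L-MI arrays of each tissue, taken by their titles. Male Wistar rats had the proximal left coronary artery ligated, or underwent the same operation without tying the suture, and were examined 2 months later, and their age is not given in the sources used here. LV RNA came from the whole ventricle in sham rats and from muscle without visible scar in infarcted rats, so the tissue taken differs between the groups. PBMCs were isolated from whole blood over a density gradient, so they are a mixture of lymphocytes, monocytes and carried-over platelets and red cell precursors. Each array (Affymetrix Rat Gene 1.0 ST) gives a log2 signal for 29214 transcript clusters, which stand for single genes or transcripts. The labels do not say which LV and PBMC arrays share a rat, and the arrays were taken as independent. P values therefore measure the spread between these arrays. L-MI replicate 1 is described in the labels, in both tissues, as a compensated injury, although its title and infarct size are those of a large infarct. It was kept as L-MI. The main counts are given below with and without it, as are the calls that changed without it among the named genes followed.

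The defining markers fitted the labelled tissues. All 7 cardiomyocyte markers lay above the median level of all transcript clusters in LV, and their mean level was between 13.07 and 13.20 on the log2 scale over the LV arrays. None of them lay above it in PBMCs. All 5 T cell markers were above the median in PBMCs and none in LV. A gene above this median in a tissue is called bright there, and the others dim. The tissues differ in the distribution of their values, with array medians of 6.52 to 6.61 in LV and 6.97 to 7.01 in PBMCs, so changes were compared and levels were not. In bulk RNA, fewer cells of a type and less RNA per cell cannot be told apart.

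After an infarct the surviving ventricle is known to lay down collagen and other extracellular matrix around stretched muscle, to turn on fetal and stress genes such as those of the natriuretic peptides, and to move away from fatty acids as its main fuel. Blood mononuclear cells supply the monocytes that enter the injured muscle and become macrophages, and they carry the receptors of T, B and natural killer cells. The comparison addresses which of the changes of the heart are also found in circulating cells.

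More changes were called after a large infarct in LV than in PBMCs. With limma and a Benjamini-Hochberg adjusted p up to 0.05, the changes of the tissues differed for 745 transcript clusters, 2.55% of those tested. The LV change was the higher one for 406 (1.39%) and the lower one for 339 (1.16%). Without L-MI replicate 1 of both tissues 574 differed, with the LV change higher for 327 and lower for 247. The balance of the directions depended on the scaling, and with every array centred on its median it was 325 higher and 437 lower. Within LV, where a call needed a fold of 1.3 and an adjusted p up to 0.05, 586 transcript clusters (2.01%) rose and 319 (1.09%) fell, 3.1% in all. In PBMCs no transcript cluster passed an adjusted p of 0.05 in limma, where the smallest adjusted p was 0.541 and 1100 transcript clusters (3.77%) had an unadjusted p below 0.05. At the milder thresholds set for PBMCs, a fold of 1.2 and an unadjusted p of 0.05, 142 were higher and 128 lower, 0.924% of those tested. The precision of both tissues was alike, with a median standard error (SE) of the change of 0.076 in LV and 0.073 in PBMCs. A change of at least 1.0 on the log2 scale was measured for 72 transcript clusters in LV and 3 in PBMCs.

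A missed threshold in PBMCs does not show that a gene stayed the same. A change was therefore called bounded where its whole 95% confidence interval lay within 1.3-fold in either direction, 0.38 on the log2 scale. By this rule 463 transcript clusters changed in LV with a bounded change in PBMCs, 283 of them upward and 180 downward. Of these 463, 193 (41.7%) were bright in PBMCs, so the bounded change was not confined to genes that are dim there. For another 39 the LV change and the tissue difference were both called, but the PBMC change was not bounded. The mirror class, changed in PBMCs with a bounded change in LV, held 9 transcript clusters. Both tissues were called for 11, and of these 7 moved the same way and 4 opposite ways. They are 1.22% of the LV calls, beside 0.924% of all transcript clusters called in PBMCs. They are 4.07% of the PBMC calls, beside 3.1% of all called in LV, so shared calls were little above these shares. Over all transcript clusters the changes of LV and PBMCs correlated with r = 0.047. The tissue difference was not called for 398 of the 905 transcript clusters called in LV, and for these the data do not show a change limited to the heart.

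**Figure D1:**
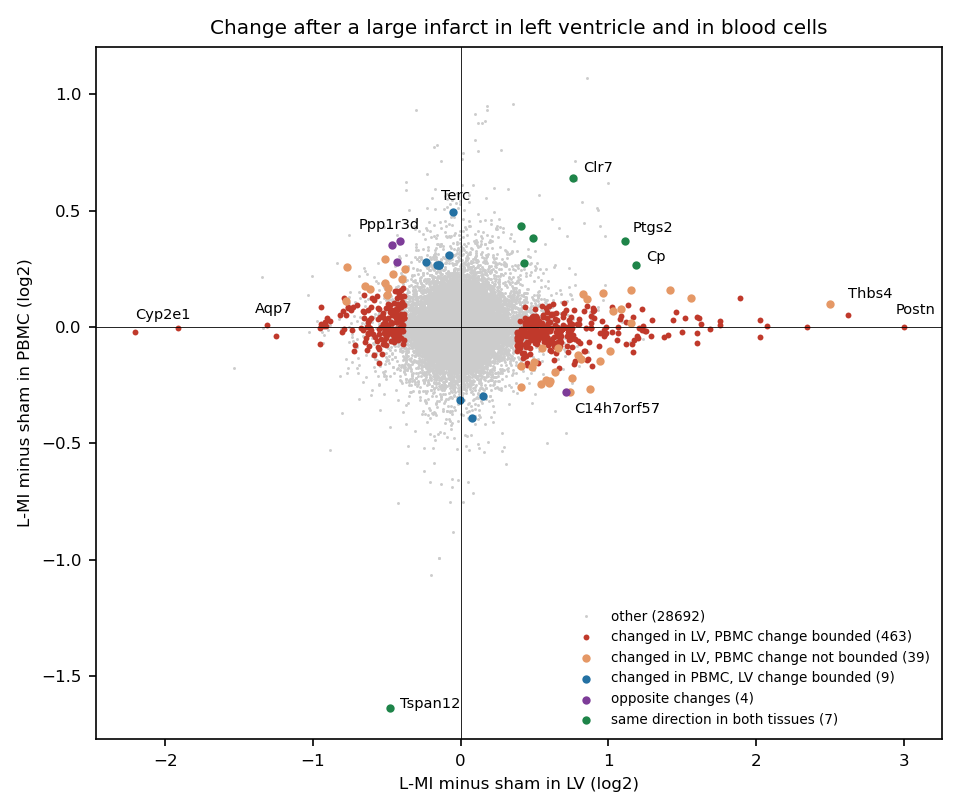
Change from sham to L-MI in LV (horizontal axis, log2) against the change in PBMCs (vertical axis, log2), 1 point for each of the 29214 transcript clusters, coloured by class with the number in brackets. The 463 points that changed in LV with a bounded PBMC change lie along the horizontal axis out to Postn at 3.0, and Tspan12 at -1.64 is the furthest point on the PBMC axis.

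Genes of the extracellular matrix rose in the heart, and none of them was called in blood. Of 39 matrix glycoproteins and proteoglycans measured, 26 rose in LV and 1 fell, none was called in PBMCs, and the tissue difference was called for 24, which is 61.5% of them against 2.55% of all transcript clusters. The LV change was the higher one for 23 of the 24. Their median change was 0.58 in LV and 0.013 in PBMCs, beside -0.0059 and -0.0050 over all transcript clusters. The PBMC change was bounded for 34 of the 39 (87.2%), against 25623 of all 29214 transcript clusters (87.7%), so a bounded PBMC change was as frequent here as elsewhere. Of 15 collagens 7 rose in LV and 7 had a tissue difference call, and the PBMC change was bounded for all 15. Of 19 genes of collagen processing and cross-linking, 9 rose in LV and 8 differed between the tissues. In PBMCs 10 of the 39 matrix genes, 4 of the 15 collagens and 8 of these 19 were bright. The others were dim there, where a bounded change may reflect a lack of signal. The mean level of 6 fibroblast markers, of which Col1a1 and Col3a1 are also on the collagen list, was between 9.31 and 9.59 in LV sham arrays and between 9.75 and 10.26 in LV L-MI arrays, and the mean of 5 monocyte or macrophage markers rose from between 8.0 and 8.27 to between 8.604 and 9.23. Their part in these results was not tested.

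The largest tissue difference of all belonged to Postn (periostin), a matrix protein of activated fibroblasts. Its log2 level in LV was 5.57, 5.83 and 6.08 (lowest, median and highest of 6 sham arrays) and 9.31, 7.80, 9.10, 8.43 and 9.41 in the 5 L-MI arrays in the order of their replicate numbers. In PBMCs the sham arrays gave 4.51, 4.55 and 4.74 and the L-MI arrays 4.57, 4.48, 4.57, 4.64 and 4.73. Every LV L-MI array lay above every LV sham array, while the blood groups overlapped at a low level. LV groups did not overlap for 6.97% of all transcript clusters, 3.1% upward and 3.87% downward. The LV change was 8-fold and the tissue difference 3.0 ± 0.27 (SE; adjusted p = 4.63e-06). Thbs4, a matrix thrombospondin, differed by 2.57 ± 0.31 (adjusted p = 5.37e-05), and Spp1 (osteopontin) by 1.997 ± 0.43 (adjusted p = 0.0124). The elastic fibre gene Mfap5 differed by 1.21 ± 0.11 and the small proteoglycan Aspn by 1.002 ± 0.12. Among the collagens the tissue difference was 1.48 ± 0.23 for Col12a1, 1.10 ± 0.14 for Col8a1 and 1.01 ± 0.13 for Col14a1. The cross-linking enzymes Loxl1, Loxl2 and Lox differed by 1.52 ± 0.18, 0.84 ± 0.13 and 0.80 ± 0.13. Vtn (vitronectin) was the member that fell, with a change of -0.50 in LV and -0.0062 in PBMCs (adjusted p of the difference = 0.00816).

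Some matrix genes were bright in blood, which means above the median level there and does not show that blood cells express them. Col1a1, the main fibrillar collagen chain, read 8.48, 8.57 and 8.63 in LV sham arrays and 9.64, 9.47, 9.16, 9.66 and 10.90 in LV L-MI arrays, against 7.69, 7.77 and 7.86 and 7.69, 7.80, 7.53, 7.84 and 7.81 in PBMCs. L-MI replicate 5 was the highest in LV, and the PBMC groups overlapped, with a 95% interval of the PBMC change of -0.18 to 0.10. Fn1 (fibronectin) stood at 8.31, 8.52 and 8.63 in LV sham arrays and 10.11, 9.58, 9.997, 10.08 and 10.57 in LV L-MI arrays. Its PBMC levels were 11.54, 11.86 and 12.14 in sham and 12.20, 11.51, 12.11, 11.81 and 12.32 in L-MI. The LV groups separated and the PBMC groups did not, but the interval of the PBMC change, -0.18 to 0.43, was too wide to bound it. The same held for Thbs1, Vcan and Bgn, whose tissue differences were 1.26 ± 0.25, 1.13 ± 0.25 and 0.99 ± 0.25 with intervals of the PBMC change of -0.18 to 0.50, -0.41 to 0.44 and -0.31 to 0.63. These 4 were picked out after their values were seen, and Bgn lost its tissue difference call without any one of 14 of the 22 arrays. Timp1, an inhibitor of matrix metalloproteinases, and Pcolce, which assists collagen processing, were also bright in PBMCs and bounded there, with tissue differences of 1.25 ± 0.19 and 0.61 ± 0.10.

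The stretch of 250 bases upstream of the annotated start was read for the genes of this group, because 26 of its 39 members rose. Of the 28 members with such a sequence (RefSeq, build GRCr8), 9 (32.1%) hold GGAATG, the binding letters of TEAD factors, on either strand, as do 11.8% of 27457 rat promoters of the same length. Among the 18 members with a tissue difference call the number was 5 (27.8%). None of the 11 collagen promoters holds these letters. A match is a string of letters and not a measured binding site. The 4 members with the largest tissue differences in size among those 5 are shown, 5′ to 3′ along the gene's strand, with GGAATG or its reverse complement in capitals.
Thbs4 (chr2:25760346-25760595, minus strand): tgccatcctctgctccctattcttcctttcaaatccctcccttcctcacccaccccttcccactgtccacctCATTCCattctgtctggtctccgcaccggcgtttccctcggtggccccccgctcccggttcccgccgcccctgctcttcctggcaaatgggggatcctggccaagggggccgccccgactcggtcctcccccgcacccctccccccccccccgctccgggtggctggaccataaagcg
Ccn2 (chr1:22624615-22624864, minus strand): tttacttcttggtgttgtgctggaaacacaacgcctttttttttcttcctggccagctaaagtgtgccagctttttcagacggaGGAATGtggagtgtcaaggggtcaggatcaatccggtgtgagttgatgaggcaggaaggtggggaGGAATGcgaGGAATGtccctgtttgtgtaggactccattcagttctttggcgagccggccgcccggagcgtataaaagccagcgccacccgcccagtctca
Thbs1 (chr3:125510000-125510249, plus strand): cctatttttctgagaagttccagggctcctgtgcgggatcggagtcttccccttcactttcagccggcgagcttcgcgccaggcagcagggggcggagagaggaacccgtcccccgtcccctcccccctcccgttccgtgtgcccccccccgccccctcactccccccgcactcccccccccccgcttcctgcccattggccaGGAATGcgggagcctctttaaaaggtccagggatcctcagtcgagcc
Vtn (chr10:63892532-63892781, plus strand): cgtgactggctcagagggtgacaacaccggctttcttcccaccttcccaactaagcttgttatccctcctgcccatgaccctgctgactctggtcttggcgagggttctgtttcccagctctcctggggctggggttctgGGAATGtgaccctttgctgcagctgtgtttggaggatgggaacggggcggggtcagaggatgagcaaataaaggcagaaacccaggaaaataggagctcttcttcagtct
Ccn2 (connective tissue growth factor) has 3 matches in this window and a tissue difference of 1.62 ± 0.22. Vtn has 1 match and is the member that fell, so the letters are found on both sides of the change. Ccn2 is dim in PBMCs.

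Genes of secreted signals were called in LV and, for 1 gene of the 3 lists given here, in PBMCs. Sfrp1 and Sfrp2, secreted antagonists of Wnt signals, differed between the tissues by 1.73 ± 0.26 and 1.75 ± 0.23 (adjusted p = 0.000418 and 0.000145). Dkk3, of the dickkopf family, differed by 0.87 ± 0.14. Of 19 genes of the Wnt list 5 rose in LV, none was called in PBMCs and 4 (21.1%) had a tissue difference call. The one with the lower change in LV was the ligand Wnt5a, picked out after its values were seen, with -0.27 in LV, 0.084 in PBMCs and a difference of -0.35 ± 0.095 (adjusted p = 0.0473), which was lost without any one of 19 of the 22 arrays. Of 22 genes of TGF-beta and BMP signalling, 7 rose in LV, 1 in PBMCs, and 4 (18.2%) differed between the tissues. Among these were Fstl1 with 0.85 ± 0.11 and the activin subunit Inhba with 0.73 ± 0.14. Of 26 growth factors and receptors 2 (7.69%) rose in LV, Igfbp6 and Fgfr1, with called tissue differences of 0.78 ± 0.13 and 0.45 ± 0.09. Over all transcript clusters 2.01% rose in LV, 0.486% rose in PBMCs and 2.55% had a tissue difference call. In PBMCs 1 of the 19 Wnt genes, 9 of the 22 and 5 of the 26 were bright. A missing PBMC call of a dim gene may reflect a lack of signal.

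Stress genes of the heart muscle were called in LV and not in PBMCs. Nppa, which encodes atrial natriuretic peptide, read 10.71, 11.23 and 11.78 in LV sham arrays and 13.02, 12.62, 13.35, 13.33 and 13.26 in LV L-MI arrays. In PBMCs it stayed between 5.91 and 6.37 over all 11 arrays. The tissue difference was 1.77 ± 0.25 (adjusted p = 0.000275). Of 19 cardiac stress genes measured, 6 rose in LV, beside 2.01% of all transcript clusters. A tissue difference was called for 4 of the 19 (21.1%), beside 2.55% of all. In PBMCs 3 of the 19 were bright. Nppa was dim there, and a missing PBMC call of a dim gene may reflect a lack of signal. Besides Nppa the 4 were Pcp4, described below, the pacemaker channel Hcn4 and Corin, the protease that activates natriuretic peptides. Hcn4 and Corin differed by 1.09 ± 0.26 and 0.56 ± 0.12. Hcn4 lost its call without L-MI replicate 1 of both tissues (adjusted p = 0.0544). Ncam1, a cell adhesion molecule, differed by 1.63 ± 0.36, and Tceal7 by 1.67 ± 0.24.

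Several of the largest LV changes concerned genes that are bright in PBMCs too. Bright means above the median level and does not show that blood cells express the gene. Pcp4, at 6.84 to 7.27 over the PBMC arrays, lay close to that median. Sbsn (suprabasin) read 7.14, 7.59 and 7.76 in LV sham arrays and 9.29, 9.44, 9.26, 10.22 and 9.88 in LV L-MI arrays. The PBMC arrays gave 7.71, 7.78 and 7.89 in sham and 7.71, 8.12, 7.85, 7.48 and 7.80 in L-MI. The infarct was followed by a 4.21-fold higher level in the heart and by no shift of the blood mean beyond -0.20 to 0.20 (95% interval, log2). Pcp4, a regulator of calmodulin, rose from 6.79, 6.99 and 7.10 to 10.16, 8.61, 8.70, 8.79 and 10.35 in LV, with L-MI replicates 1 and 5 highest. Its PBMC arrays gave 6.96, 7.11 and 7.20 and 7.17, 7.18, 7.004, 6.84 and 7.27, which overlap. Chi3l1, a secreted chitinase-like protein of macrophages and neutrophils, read 10.96, 11.28 and 11.59 in PBMC sham and 11.62, 11.05, 11.51, 10.97 and 11.26 in PBMC L-MI arrays, and these groups overlapped. In LV it stood at 7.35, 7.47 and 7.62 and rose to 9.18, 8.68, 9.52, 9.34 and 9.12, with a tissue difference of 1.70 ± 0.19 (adjusted p = 4.31e-05). Slc6a6, the taurine transporter, chosen after its values were seen, read 9.88, 9.99 and 10.24 in LV sham arrays and 11.01, 10.85, 11.09, 11.17 and 11.15 in LV L-MI arrays. In PBMCs it read 10.004, 10.20 and 10.38 in sham and 10.11, 10.22, 10.32, 10.25 and 10.10 in L-MI, for a tissue difference of 1.05 ± 0.11. Hamp, the iron hormone hepcidin, is dim in PBMCs and is given for the size of its LV change. It read 8.91, 9.26 and 9.76 in LV sham and 11.44, 10.88, 11.68, 11.46 and 11.16 in LV L-MI arrays and differed by 2.07 ± 0.21. Its PBMC arrays all lay between 6.75 and 7.07.

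**Figure D2:**
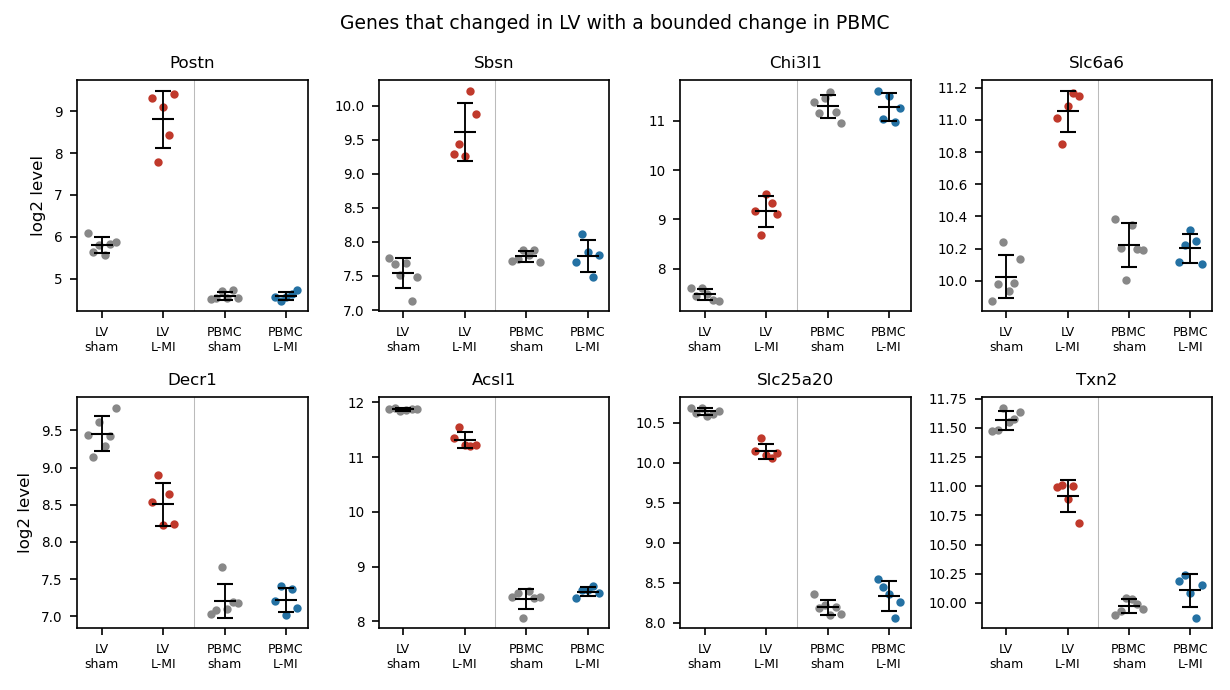
Log2 level in each array (points) of 8 genes that changed in LV with a bounded PBMC change, with the mean and SD of each group; each panel has its own vertical axis. The LV L-MI arrays lie apart from the LV sham arrays in all 8 panels, upward for Postn, Sbsn, Chi3l1 and Slc6a6 and downward for Decr1, Acsl1, Slc25a20 and Txn2, and the PBMC groups overlap.

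Genes of fatty acid uptake and oxidation fell in the heart, and none of them was called in blood. All 30 members measured had a negative change in LV, 17 of them passed the LV thresholds, none was called in PBMCs, and the tissue difference was called for 19 (63.3%, all with the lower change in LV). Against this, 1.16% of all transcript clusters had such a call. The median change was -0.40 in LV and 0.017 in PBMCs. Of the 30, 23 were bright in both tissues. Of those 23, 17 had a tissue difference call, and the PBMC change was bounded for 29 of the 30 (96.7%), beside 87.7% of all transcript clusters. The mean of the members, relative to the sham mean, was between -0.52 and -0.25 in the 5 LV L-MI arrays and between -0.087 and 0.068 in the 6 LV sham arrays. In PBMCs it was between -0.023 and 0.072 in L-MI and between -0.071 and 0.034 in sham arrays. The groups did not overlap in LV and did in PBMCs.

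The members that fell cover the steps of the pathway. At the capillary wall Gpihbp1, which anchors lipoprotein lipase, differed by -0.91 ± 0.15 (adjusted p = 0.00128). Acsl1, which activates fatty acids with coenzyme A, read 11.84, 11.88 and 11.90 in LV sham arrays and 11.35, 11.55, 11.21, 11.21 and 11.22 in LV L-MI arrays. Its PBMC levels were 8.06, 8.45 and 8.55 in sham and 8.43, 8.56, 8.57, 8.64 and 8.51 in L-MI arrays. The LV groups were apart and the blood groups overlapped. The tissue difference was -0.70 ± 0.11 (adjusted p = 0.000513). Slc25a20, the carnitine carrier of the inner mitochondrial membrane, fell in LV from 10.59, 10.63 and 10.69 to 10.15, 10.30, 10.09, 10.06 and 10.12. Its PBMC arrays overlapped at 8.09, 8.19 and 8.36 and 8.55, 8.45, 8.36, 8.06 and 8.25, and the tissue difference was -0.64 ± 0.099 (adjusted p = 0.000652). Decr1, a reductase needed for unsaturated fatty acids, had the largest difference of the list. It read 9.14, 9.44 and 9.80 in LV sham and 8.53, 8.90, 8.22, 8.64 and 8.24 in LV L-MI arrays, against 7.03, 7.14 and 7.66 and 7.21, 7.40, 7.01, 7.36 and 7.11 in PBMCs. Its tissue difference was -0.96 ± 0.19 (adjusted p = 0.00488). Mlycd, which lowers the inhibitor malonyl coenzyme A, differed by -0.45 ± 0.073, and the medium-chain dehydrogenase Acadm and the peroxisomal enzyme Ehhadh, which is not on the list, by -0.57 ± 0.11 and -0.82 ± 0.14. Cpt1a, the entry step in blood cells and liver, had a change of -0.38 in LV and 0.25 in PBMCs (exact permutation p of the PBMC change = 0.0758), and its tissue difference was -0.63 ± 0.15. The muscle form Cpt1b and the fatty acid carriers Cd36 and Fabp3 had no tissue difference call, with values of -0.17 ± 0.093, -0.20 ± 0.20 and -0.29 ± 0.11. Acadm, Ehhadh and the genes of the last 2 sentences were picked out after their values were seen. The mean of 7 cardiomyocyte markers was between 13.17 and 13.20 in LV sham and between 13.07 and 13.16 in LV L-MI arrays, and none of the 7 was called.

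The promoters of this list were searched for AGGTCA, the core letters that nuclear receptors of the PPAR and ERR families bind. It was found on either strand in 5 of the 23 members with a sequence (21.7%) and in 4 of the 17 with a tissue difference call (23.5%), and 13.7% of all 27457 promoters hold it. These 4 are shown with the match, or its reverse complement, in capitals.
Ucp3 (chr1:164227660-164227909, plus strand): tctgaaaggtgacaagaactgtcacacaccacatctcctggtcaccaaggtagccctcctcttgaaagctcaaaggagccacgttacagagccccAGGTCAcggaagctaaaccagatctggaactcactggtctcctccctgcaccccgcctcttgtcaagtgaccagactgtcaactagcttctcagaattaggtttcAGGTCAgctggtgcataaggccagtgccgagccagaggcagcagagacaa
Eci1 (chr10:13961000-13961249, plus strand): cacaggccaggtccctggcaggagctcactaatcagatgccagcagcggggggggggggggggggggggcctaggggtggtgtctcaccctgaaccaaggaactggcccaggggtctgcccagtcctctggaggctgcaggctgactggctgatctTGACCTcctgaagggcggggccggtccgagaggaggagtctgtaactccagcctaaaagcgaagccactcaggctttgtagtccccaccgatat
Acadvl (chr10:55236706-55236955, minus strand): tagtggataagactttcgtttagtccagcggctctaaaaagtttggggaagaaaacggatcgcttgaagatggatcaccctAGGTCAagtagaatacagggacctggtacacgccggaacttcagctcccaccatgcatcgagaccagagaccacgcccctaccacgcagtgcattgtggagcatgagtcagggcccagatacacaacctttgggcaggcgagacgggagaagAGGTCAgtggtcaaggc
Slc27a1 (chr16:18312717-18312966, plus strand): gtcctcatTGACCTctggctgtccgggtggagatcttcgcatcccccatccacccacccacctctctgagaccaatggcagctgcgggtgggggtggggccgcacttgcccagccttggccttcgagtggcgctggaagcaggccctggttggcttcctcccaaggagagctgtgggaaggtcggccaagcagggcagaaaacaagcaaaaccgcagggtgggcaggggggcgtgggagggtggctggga
Ucp3, a mitochondrial carrier, and Acadvl, the very long chain dehydrogenase, have 2 matches each and tissue differences of -0.63 ± 0.17 and -0.41 ± 0.1. Eci1, an isomerase of the pathway, and Slc27a1, a fatty acid transporter, have 1 match each and differ by -0.59 ± 0.10 and -0.33 ± 0.082. The letters TGANTCA, the AP-1 site, were searched too and lie in 6.36% of all promoters, in 1 of the 28 matrix promoters and in 1 of the 23 of the fatty acid list.

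In neighbouring energy pathways 6.67% of the respiratory chain and citrate cycle genes and 13% of the genes of glucose uptake and glycolysis had a tissue difference call, beside 2.55% of all transcript clusters. Of 30 genes of the respiratory chain and citrate cycle, 29 had a negative LV change with a median of -0.17, but 1 passed the LV thresholds and 2 the tissue difference, Suclg1 with -0.40 ± 0.089 and Ogdh with -0.24 ± 0.06, both of the citrate cycle. Ogdh lost its call without L-MI replicate 1 of both tissues (adjusted p = 0.0601), and without any one of 7 of the 22 arrays. Of 23 genes of glucose uptake and glycolysis, all bright in both tissues, 2 rose in LV and 1 fell. Pfkp, a phosphofructokinase, and Slc16a1, a lactate carrier, had the higher change in LV by 0.65 ± 0.11 and 0.35 ± 0.088, the latter lost without any one of 7 of the 22 arrays, and Pdk1, which slows pyruvate oxidation, the lower one by -0.49 ± 0.10. Pdk4, a relative of Pdk1 that responds to fatty acids, is not among these 23 and is dim in PBMCs. It read 11.03, 11.75 and 11.89 in LV sham arrays and 10.88, 10.98, 10.68, 10.43 and 10.40 in LV L-MI arrays. Its PBMC arrays gave 5.98, 6.08 and 6.13 in sham and 5.95, 6.06, 6.18, 6.17 and 6.09 in L-MI, and the tissue difference was -0.94 ± 0.18. Slc2a4, the insulin-responsive glucose transporter, picked out after its values were seen, had a change of 0.56 ± 0.24 in PBMCs and -0.19 ± 0.051 in LV, and the tissue difference of -0.75 ± 0.26 did not pass (adjusted p = 0.162).

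Other genes with large falls belong to drug, water and ion handling. Cyp2e1, a cytochrome that oxidizes small molecules, had the lowest tissue difference of all named genes at -2.19 ± 0.29 (adjusted p = 0.000145). It read 7.44, 8.30 and 8.68 in LV sham and 6.10, 6.66, 5.18, 6.23 and 5.89 in LV L-MI arrays, and between 4.77 and 5.04 over the PBMC arrays. Aqp7, a glycerol channel, went from 11.32, 11.45 and 11.55 to 10.26, 10.67, 9.69, 10.27 and 9.75 in LV and stayed between 5.17 and 5.64 in PBMCs, where it is dim, and differed by -1.32 ± 0.18. The sodium channel subunit Scn4b differed by -1.21 ± 0.23, triadin (Trdn), which holds the calcium release complex, by -0.93 ± 0.16, the filament capping protein Tmod4 by -1.03 ± 0.15 and the triglyceride enzyme Dgat2 by -0.95 ± 0.16. Ddit4l, a stress-induced inhibitor of mTOR signalling, differed by -0.94 ± 0.14. F1m737, whose role is not known here, changed by -1.91 in LV, with a difference of -1.91 ± 0.33. Txn2, the mitochondrial thioredoxin, was chosen after its values were seen because it is bright in both tissues. It read 11.48, 11.57 and 11.67 and 10.99, 11.01, 10.89, 10.998 and 10.68 in LV and 9.90, 9.97 and 10.04 and 10.18, 10.24, 10.09, 9.87 and 10.16 in PBMCs, for a tissue difference of -0.79 ± 0.095 (adjusted p = 5.37e-05). Calcium handling and ion channel genes had 3 tissue difference calls among 25 (12%), Scn4b, Trdn and the potassium channel subunit Kcnj11 (-0.26 ± 0.069), all lower in LV, beside 1.16% of all transcript clusters. Leaving out single arrays gave 2 to 5 such calls, with 2 without LV sham replicate 1 and 5 without LV sham replicate 5. Sarcomere genes had 1 call among 21 (4.76%, beside 2.55% of all transcript clusters), that of Tmod4.

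**Figure D3:**
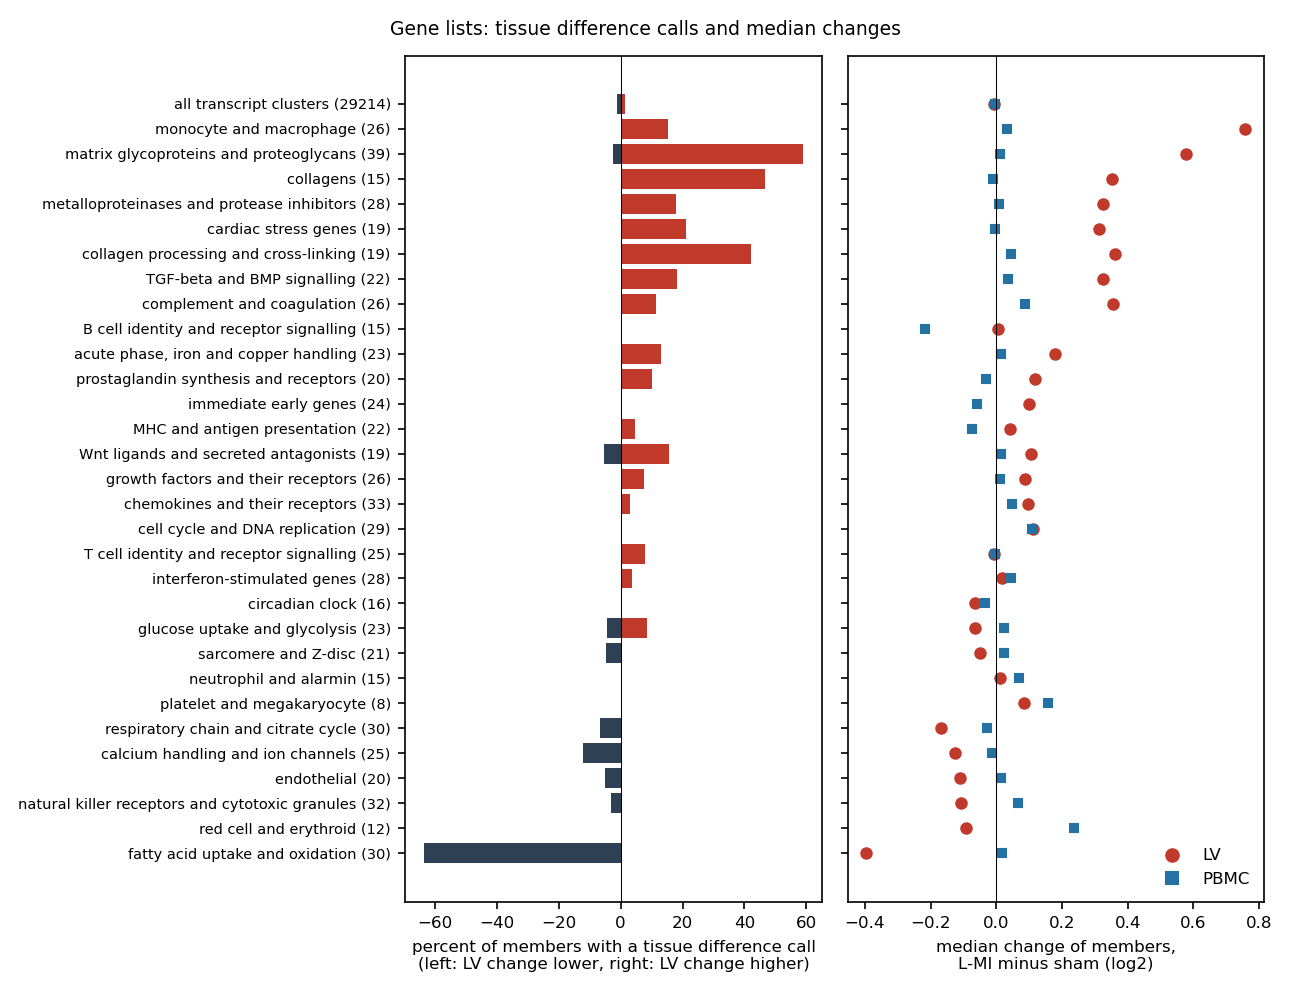
For each of 30 gene lists (members measured in brackets) and for all transcript clusters, the left panel gives the percent of members with a tissue difference call, to the right where the LV change was higher and to the left where it was lower, and the right panel the median change from sham to L-MI in LV (circles) and in PBMCs (squares). Fatty acid genes reach furthest to the left with 63.3% and matrix glycoproteins furthest to the right, while the PBMC medians of all lists lie between -0.22 and 0.24.

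Macrophage genes show where the comparison reaches its limit. Of 26 monocyte and macrophage genes 21 rose in LV and none was called in PBMCs, with median changes of 0.76 and 0.033. The tissue difference was called for 4 (15.4%), and this number rested on single arrays. It was 12 without PBMC L-MI replicate 1, 11 without LV L-MI replicate 2, 10 without PBMC sham replicate 6, 8 without PBMC L-MI replicate 5 and 2 without any one of 11 others, and 7 without L-MI replicate 1 of both tissues. The spread of these genes in blood was wide, with a median SE of the PBMC change of 0.176 against 0.073 over all transcript clusters, and the PBMC change was bounded for 5 of the 26 (19.2%), against 87.7% of all. The mean of the list was between 0.30 and 0.79 above the sham mean in the LV L-MI arrays, and between -0.23 and 0.52 in the PBMC L-MI arrays against -0.21 to 0.23 in PBMC sham arrays. The LV groups did not overlap, and the PBMC groups did, with L-MI replicate 5 highest.

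The 4 that passed were Lyz2, Ctss, Csf1r and Tyrobp. Lyz2 (lysozyme) read 10.07, 10.17 and 10.43 in LV sham and 11.33, 10.82, 11.43, 11.12 and 11.28 in LV L-MI arrays. In PBMCs it read 12.84, 13.09 and 13.25 in sham and 13.23, 12.92, 13.14, 12.98 and 12.99 in L-MI arrays, which overlap. Its tissue difference was 1.01 ± 0.14 (adjusted p = 0.000158). Ctss (cathepsin S) rose from 8.29, 8.40 and 8.47 to 9.42, 8.91, 9.51, 9.08 and 9.23 in LV, while its PBMC arrays gave 10.55, 11.10 and 11.25 and 10.96, 10.89, 11.001, 10.76 and 10.94, and it differed by 0.94 ± 0.15 (adjusted p = 0.00103). Csf1r, the receptor of the macrophage growth factor, differed by 0.76 ± 0.19 and the adaptor Tyrobp by 0.64 ± 0.17, both close to the threshold (adjusted p = 0.0367 and 0.0464). Csf1r missed it without L-MI replicate 1 of both tissues (adjusted p = 0.052) and without any one of 13 of the 22 arrays, and Tyrobp without any one of 16. Cd68, a lysosomal protein of macrophages, went from 7.46, 7.68 and 7.81 to 8.63, 8.06, 8.87, 8.42 and 8.72 in LV. In PBMCs it ran from 9.80, 10.20 and 10.61 in sham to 10.69, 9.81, 10.54, 9.98 and 10.30 in L-MI arrays, and its tissue difference of 0.84 ± 0.23 missed the threshold (adjusted p = 0.0526), but passed it without L-MI replicate 1 of both tissues (adjusted p = 0.0469). The complement genes C1qa, C1qb and C1qc had changes of 0.84, 0.93 and 0.93 in LV and 0.45, 0.51 and 0.50 in PBMCs, and a difference between the tissues was not called. They were picked out after their values were seen. Cybb, the NADPH oxidase of phagocytes, and Selplg, a ligand of selectins on leukocytes, chosen after their values were seen, passed with 0.93 ± 0.15 and 1.27 ± 0.28.

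**Figure D4:**
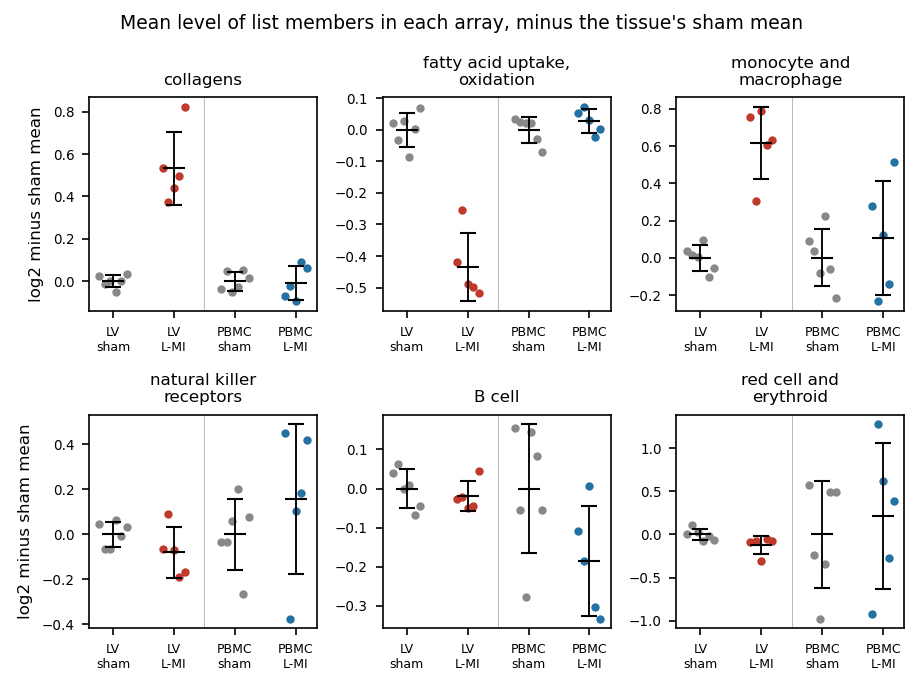
Mean log2 level of the members of 6 gene lists in each array (points), minus the mean of the sham arrays of the same tissue, with the mean and SD of each group; each panel has its own vertical axis. Collagens and fatty acid genes are tight in PBMCs, and the monocyte, natural killer and red cell lists spread over the PBMC L-MI arrays, the last between -0.92 and 1.27.

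Of 25 T cell genes 2 (8%) differed, both with the higher change in LV, beside 1.39% of all transcript clusters with such a call, and no B cell gene differed. Cd4 read 9.08, 9.15 and 9.24 in LV sham and 10.02, 9.47, 10.13, 10.02 and 9.96 in LV L-MI arrays, against 11.59, 11.64 and 11.82 and 11.70, 11.67, 11.60, 11.94 and 11.80 in PBMCs, and differed by 0.69 ± 0.12 (adjusted p = 0.00222). In the rat both T cells and macrophages express Cd4. The 5 T cell markers Cd3d, Cd3e, Cd3g, Cd5 and Lck had no call in either tissue. Which cells carried the LV change of Cd4 was not tested. The costimulatory receptor Cd28 differed by 0.61 ± 0.12. Of 15 B cell genes 14 had a negative PBMC change, with a median of -0.22 in PBMCs and 0.0066 in LV. In PBMCs 1 was called (Spib, -0.31 ± 0.12, exact permutation p = 0.0476), and none had a tissue difference call. Their PBMC change was bounded for 4 of the 15 (26.7%), beside 87.7% of all transcript clusters. All 12 red cell genes had a positive PBMC change with a median of 0.24, none was called there, and their level varied widely between PBMC arrays, from -0.98 to 0.57 in sham and from -0.92 to 1.27 in L-MI arrays. The part of this variation in the PBMC results was not tested.

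Natural killer receptors held the most PBMC calls of the lists described here. Of 32 genes 8 were called higher and 1 lower in PBMCs, beside 0.924% of all transcript clusters called in either direction. Klrc3, an activating receptor of the NKG2 family, read 9.16, 9.49 and 9.92 in PBMC sham arrays and 10.96, 9.79, 9.81, 10.91 and 11.01 in PBMC L-MI arrays, with replicates 1, 4 and 5 above all others and replicates 2 and 3 within the sham range. Its LV arrays gave 6.70, 6.93 and 7.01 in sham and 6.95, 7.40, 7.31, 6.83 and 6.82 in L-MI. The PBMC change was 0.95 ± 0.24 (exact permutation p = 0.013) and the LV change 0.18 ± 0.11, but the tissue difference of -0.77 ± 0.29 did not pass (adjusted p = 0.2). Klrc1, Klrc2 and Klre1 had PBMC changes of 0.76, 0.88 and 0.44 and tissue differences of -0.64 ± 0.25, -0.76 ± 0.28 and -0.52 ± 0.19 (adjusted p = 0.22, 0.183 and 0.18). Near-identical receptors of this family can share probes and their values are not independent. The only member with a tissue difference call (3.12%, beside 2.55% of all transcript clusters) was Klrb1c, which changed by -0.66 in LV and 0.067 in PBMCs (adjusted p = 0.00211). Without PBMC L-MI replicate 2 there were 3 such calls. For the 8 genes called higher in PBMCs the arrays do not show a change limited to blood.

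The 9 transcript clusters that changed in PBMCs with a bounded LV change were small in effect, and 6 have a gene name. Terc, the RNA template of telomerase, read 7.84, 8.08 and 8.49 in PBMC sham arrays and 8.55, 8.72, 8.41, 8.87 and 8.38 in PBMC L-MI arrays, where L-MI replicates 3 and 5 lay below the highest sham array and the other L-MI arrays above it. In LV it read 8.77, 8.97 and 9.13 and 9.01, 8.94, 8.90, 8.96 and 8.78. Its PBMC change was 0.49 ± 0.12 (exact permutation p = 0.00866) and its tissue difference -0.54 ± 0.15 (adjusted p = 0.0487). Slc25a23, a mitochondrial carrier of ATP and phosphate, read 8.63, 8.86 and 9.001 in PBMC sham and 9.14, 9.13, 8.93, 9.19 and 9.17 in PBMC L-MI arrays and differed by -0.43 ± 0.094 (adjusted p = 0.0139). A second transcript cluster of Slc25a23 had a tissue difference call with a PBMC change below the fold threshold. Napepld, which makes N-acylethanolamines, differed by -0.41 ± 0.11, the homeobox gene Meis1 by -0.51 ± 0.14 and LOC681292 by -0.39 ± 0.10, each with the higher change in PBMCs. Vof16 had the lower change in PBMCs, -0.30 ± 0.07, and differed by 0.45 ± 0.096 (adjusted p = 0.0114). A bounded LV change is not an absent one, and Meis1 had an LV change of -0.23 with a 95% interval of -0.35 to -0.11. Without L-MI replicate 1 of both tissues the class held 5 transcript clusters, and Terc, Napepld, Meis1 and LOC681292 lost their tissue difference calls (adjusted p = 0.0756, 0.121, 0.12 and 0.104). Each of these 4 also lost its call without any one of 17 or 18 of the 22 arrays, and their PBMC changes passed no adjusted threshold.

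Opposite changes were called for 4 genes. Ppp1r3d, a glycogen-targeting subunit of protein phosphatase, read 9.35, 9.49 and 9.66 in LV sham and 8.95, 9.01, 9.14, 9.27 and 9.04 in LV L-MI arrays. In PBMCs it read 7.87, 8.05 and 8.35 in sham and 8.95, 8.14, 8.17, 8.35 and 8.54 in L-MI, with L-MI replicate 1 highest. It fell in LV without overlap, and its PBMC change was 0.37 ± 0.13 (exact permutation p = 0.0281), for a tissue difference of -0.78 ± 0.16 (adjusted p = 0.00794). Akr1e2, an aldo-keto reductase, went from 7.89, 7.96 and 8.05 to 7.47, 7.76, 7.56, 7.30 and 7.40 in LV and from 5.77, 6.13 and 6.405 to 6.65, 6.56, 6.49, 6.502 and 6.13 in PBMCs, a difference of -0.81 ± 0.15 (exact permutation p in PBMCs = 0.0433). Epdr1 (ependymin related) read 9.81, 9.95 and 10.09 and 9.54, 9.70, 9.41, 9.31 and 9.69 in LV and 6.24, 6.77 and 6.91 and 7.21, 6.90, 6.83, 6.74 and 7.20 in PBMCs, a difference of -0.71 ± 0.15 (exact permutation p in PBMCs = 0.0844). C14h7orf57, a gene of unknown role, was the one that rose in LV, from 5.90, 6.05 and 6.28 to 6.68, 6.80, 7.12, 6.85 and 6.44. In PBMCs it read 8.76, 9.02 and 9.33 in sham and 8.70, 8.89, 9.08, 8.75 and 8.47 in L-MI arrays (exact permutation p = 0.0649), and the difference was 0.99 ± 0.17 (adjusted p = 0.00151). The LV groups did not overlap for any of the 4 and the PBMC groups overlapped for all 4. PBMC arrays of L-MI and sham did not overlap for 0.294% of all transcript clusters. The PBMC calls of C14h7orf57 and Epdr1 passed limma's unadjusted threshold and not the exact test at 0.05. Gpr183, P2ry6 and Nabp1, chosen after their values were seen, came close to this class, with LV changes of 0.60, 0.54 and 0.61 and PBMC changes of -0.24, -0.25 and -0.23, just under the fold of 1.2. Cd83, a marker of activated dendritic and B cells, had 0.33 in LV, under the fold of 1.3, and -0.33 in PBMCs, with a difference of 0.66 ± 0.14 (adjusted p = 0.0121).

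Changes of the same direction in both tissues were called for 7 genes, and 1 of them, Cp, also differed in size. Of these 7, 4 were bright in PBMCs, 4 in LV and 2 in both. Cp, Ptgs2 and C1s were dim in PBMCs, and Clr7, Klra7 and Ptgs2 were dim in LV. Cp (ceruloplasmin), the copper-carrying ferroxidase of plasma, read 7.27, 7.31 and 7.42 in LV sham and 8.78, 8.30, 8.30, 8.45 and 8.73 in LV L-MI arrays. In PBMCs it read 5.78, 5.95 and 6.15 in sham and 6.17, 6.12, 6.22, 5.96 and 6.57 in L-MI, with L-MI replicate 5 highest. The LV change of 1.19 ± 0.09 exceeded the PBMC change of 0.27 ± 0.1 (exact permutation p = 0.0281) by 0.92 (adjusted p = 0.000544). Ptgs2, the inducible cyclooxygenase, changed by 1.11 ± 0.21 in LV and 0.37 ± 0.13 in PBMCs, but its L-MI arrays spread widely, at 7.16, 6.54, 7.19, 6.66 and 8.02 in LV and 6.15, 5.98, 6.10, 5.84 and 6.75 in PBMCs, against 5.92, 5.99 and 6.16 and 5.68, 5.77 and 5.96 in sham. L-MI replicate 5 was highest in both tissues, and the difference of 0.74 ± 0.26 did not pass (adjusted p = 0.162).

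The remaining 5 showed no difference that the arrays could resolve. Clr7, a C-type lectin-related protein, had 0.76 ± 0.11 in LV and 0.64 ± 0.17 in PBMCs. It read 5.53, 5.89 and 6.19 and 6.75, 6.595, 6.63, 6.63 and 6.67 in LV and 9.62, 9.98 and 10.08 and 10.71, 10.65, 9.85, 10.59 and 11.02 in PBMCs, where L-MI replicate 3 stayed within the sham range. Klra7, a killer cell receptor of the Ly49 family, changed by 0.41 ± 0.088 and 0.43 ± 0.17, from 6.000, 6.17 and 6.30 to 6.31, 6.66, 6.80, 6.495 and 6.56 in LV and from 8.57, 8.84 and 9.29 to 9.79, 9.04, 8.85, 9.53 and 9.34 in PBMCs. Lgals3bp, a secreted glycoprotein that binds galectin, had 0.49 ± 0.11 and 0.38 ± 0.13, and the complement protease C1s 0.43 ± 0.077 and 0.27 ± 0.085. The level of C1s was low in PBMCs, between 4.23 and 4.89 over the arrays. Exact permutation p values of the PBMC changes were 0.0173 for Clr7, 0.0455 for Klra7, 0.0346 for Lgals3bp and 0.0216 for C1s. The paper's RT-qPCR did not find the PBMC rises of Clr7, Klra7 and Ptgs2 significant, with Ptgs2 marked as near significance. It found their LV rises, and the rises of Cp in both tissues, significant. Tspan12, a tetraspanin, fell in both tissues on the arrays. By the paper's RT-qPCR its fall was significant in PBMCs, and no significant change was found in LV. It read 11.41, 11.71 and 11.79 in LV sham and 11.11, 11.22, 11.17, 11.16 and 11.23 in LV L-MI arrays, a narrow shift without overlap, while PBMC sham arrays ran from 9.07, 11.002 and 11.68 to 10.04, 8.67, 9.14, 8.71 and 9.34 in L-MI, which overlap, and the lowest sham array lay well below the other sham arrays. The PBMC change of -1.64 ± 0.41 was larger than the LV change of -0.48 ± 0.068, yet the difference of 1.16 ± 0.45 did not pass (adjusted p = 0.223; exact permutation p of the PBMC change = 0.0152).

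**Figure D5:**
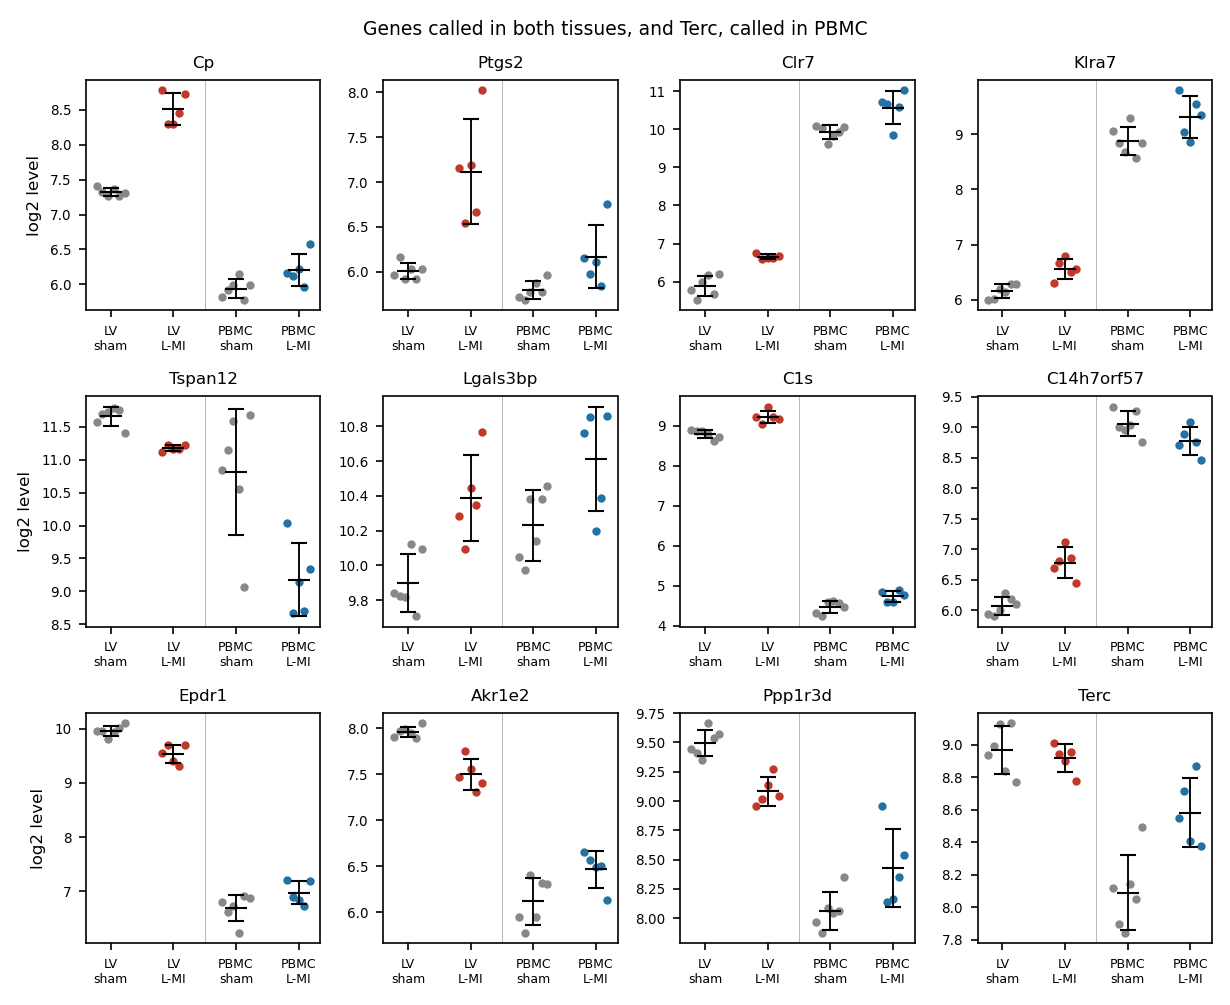
Log2 level in each array (points) of the 7 genes called in the same direction in both tissues, the 4 genes called in opposite directions, and Terc, with the mean and SD of each group; each panel has its own vertical axis. LV groups are apart in all panels except Lgals3bp and Terc, PBMC groups overlap in every panel, and the PBMC sham arrays of Tspan12 span 9.07, 11.002 and 11.68 (lowest, median and highest).

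Complement, chemokine, prostaglandin and acute phase genes had 5 to 12 LV calls a list and 1 or 2 PBMC calls. Of 26 complement and coagulation genes 12 rose in LV, 1 in PBMCs and 3 (11.5%) differed, Cd55, which restrains complement on cell surfaces and is bright in both tissues, by 1.02 ± 0.19, Serping1, the inhibitor of the first complement component, by 0.56 ± 0.11, and F13a1, a coagulation factor of monocytes, by 0.82 ± 0.22. Without PBMC L-MI replicate 5 the number that differed was 7, and without LV L-MI replicate 2 it was 5. Of 33 chemokines and receptors 7 rose in LV, and in PBMCs the receptor Cxcr6 was called higher at 0.39 and the receptor Ccr6 lower at -0.28, both picked out after their values were seen. A tissue difference was called for 1 of the 33 (3.03%, beside 2.55% of all transcript clusters), the B cell attractant Cxcl13. It differed by 1.04 ± 0.25 (adjusted p = 0.0269, and 0.0752 without L-MI replicate 1 of both tissues). No chemokine gene had such a call without LV L-MI replicate 4, and 3 had the higher and 1 the lower change in LV without LV L-MI replicate 2. Of 20 genes of prostaglandin synthesis and receptors 6 rose in LV, with tissue differences of 1.23 ± 0.17 for the prostaglandin F receptor Ptgfr and 0.62 ± 0.14 for prostacyclin synthase Ptgis, which lost its call without L-MI replicate 1 of both tissues (adjusted p = 0.0699). Of 23 acute phase, iron and copper genes 5 rose in LV and Hamp, Cp and Lbp differed, Lbp by 1.01 ± 0.27 (adjusted p = 0.0466, and 0.134 without L-MI replicate 1 of both tissues). F13a1 and Lbp each lost the call without any one of 16 of the 22 arrays. Of 28 metalloproteinases and protease inhibitors 7 rose in LV, 5 differed and none was called in PBMCs, and Mmp2 and Serpinf1 differed by 0.46 ± 0.098 and 0.86 ± 0.12. Interferon-stimulated genes, MHC genes and endothelial genes each had 1 tissue difference call, among 28, 22 and 20 genes. These shares of 3.57%, 4.55% and 5% lie near the 2.55% of all transcript clusters. The endothelial gene was Gpihbp1. Ifitm1, an interferon-induced membrane protein, differed by 0.51 ± 0.12 (adjusted p = 0.0235, and 0.0518 without L-MI replicate 1 of both tissues). RT1-DMa, which helps to load class II molecules with peptide, differed by 0.67 ± 0.16 and lost its call without LV L-MI replicate 3. Neutrophil, platelet, immediate early, circadian clock and cell cycle genes had no tissue difference call, among 15, 8, 24, 16 and 29. The PBMC change was bounded for 60%, 12.5%, 50%, 81.2% and 65.5% of them, beside 87.7% of all transcript clusters. A missing call does not show that the tissues changed alike. Jun fell by 0.38 in PBMCs at the thresholds set there (exact permutation p = 0.0325). Of the 29 cell cycle genes 4 were called higher in PBMCs, where 0.486% of all transcript clusters were, and none in LV. They were Mki67 with 0.39, Top2a with 0.34 (exact permutation p = 0.00866), Nusap1 with 0.29 and Bub1 with 0.27, of which Mki67, Nusap1 and Bub1 were picked out after their values were seen. The change was positive for 25 of the 29 in PBMCs and 24 in LV, with a median of 0.11 in both tissues.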

How the data were processed

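The authors summarized each array by robust multiarray averaging (RMA) in Partek software (versions not given in the sources used here) and deposited signals read here as log2, although no base is named. The tissues were apparently normalized apart. Transcript clusters were named by 1 symbol of the platform annotation (15310) or by the paper's supplementary tables (176). The other 13728 were left unnamed. A list takes the brightest transcript cluster of a gene.

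Models were fitted with limma 3.58.1 in R 4.3.3: 4 group means over 22 arrays for the tissue difference, and 2 group means over 11 arrays for each tissue, with the study's thresholds. Errors are SEs unless named otherwise. Permutation tests are exact and two-sided over 462 splits. Fits were tested on simulated data. Figures were drawn with matplotlib 3.10.9. The number of arrays limits the precision. The members and lists were chosen with earlier results of these data known. Named genes are those with the largest differences of each class (12 up, 12 down, otherwise up to 10), the 5 the study named for both tissues, and 2 to 4 of each list described by p. Exceptions are marked, and some genes of the rule are left out. Alternatives were other variance models, array weights, scalings, filters, thresholds, all 34 arrays, a replicate block and leaving out arrays.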

Additional observations from a re-analysis of the deposited data

Results flagged for a closer look

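The changes of the tissues differed for 745 transcript clusters. Opposite changes gave tissue differences of 0.99 for C14h7orf57, -0.71 for Epdr1, -0.81 for Akr1e2 and -0.78 for Ppp1r3d. Of 164 groups of array values shown above, 6 held an array far from the others by Dixon's criterion, which chance meets in about 1 group in 20. These were PBMC sham replicate 3 for Decr1 (7.66, highest) and for Acsl1 (8.06, lowest), PBMC L-MI replicate 3 for Slc25a23 (8.93, lowest), LV L-MI replicate 2 for Cd4 (9.47, lowest), LV L-MI replicate 5 for Col1a1 (10.90, highest) and LV L-MI replicate 3 for the mean of the red cell list (-0.31 from the sham mean, lowest).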

How the results depend on the processing

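Of 95 called tissue differences of single genes, 78 kept their direction and call under every alternative in which the gene was followed. Other thresholds were applied to the counts alone and not to single genes. A gene removed by a filter on its level was not followed there. None of the 95 changed sign. Leaving out single arrays gave 573 to 1056 tissue difference calls (322 to 580 with the LV change higher, 239 to 476 lower), 782 to 1151 LV calls, 238 to 475 PBMC calls, 389 to 650 changed in LV with a bounded PBMC change, 3 to 20 changed in PBMC with a bounded LV change, 3 to 9 opposite changes and 4 to 17 of the same direction. The 475 PBMC calls came without PBMC L-MI replicate 3, and the 20 and the 17 without PBMC L-MI replicate 2. The cause of these and the following shifts was not tested.

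Without moderation 4 changed in PBMC with a bounded LV change and 2 were opposite. Joint quantile normalization gave 7 opposite. Median centring moved the median difference over all transcript clusters to -0.035 and gave 325 differences with the LV change higher and 437 lower, against 406 and 339. Without the 30% dimmest there were 175 PBMC calls. Among transcript clusters bright in both tissues, where fewer transcript clusters are tested, there were 225 differences with the LV change higher and 277 lower, 431 LV calls, 77 PBMC calls, 219 changed in LV with a bounded PBMC change, 4 in PBMC with a bounded LV change, 1 opposite and 2 of the same direction. At an adjusted p of 0.01, 278 differed, 164 higher and 114 lower. With a fold of 1.3 and an adjusted p in both tissues, 0 PBMC calls were left, and 0 in each class that needs them, against 1100 transcript clusters at an unadjusted p below 0.05. With a fold of 1.2 and an unadjusted p in both, there were 2419 LV calls, 7 opposite and 14 of the same direction. Without L-MI replicate 1 of both tissues there were 574 tissue difference calls, 782 LV calls and 360 PBMC calls, against 745, 905 and 270. In that fit 376 changed in LV with a bounded PBMC change, against 463, and 5 changed in PBMC with a bounded LV change. It gave 3 opposite changes and 6 of the same direction. With the replicate number as a fixed block, 545 differed, against 745. The LV change was higher for 322 and lower for 223 of them, against 406 and 339. Whether shared numbers mark pairs is not stated, and correlation cannot decide it, since the tissues of a rat need not deviate together. Of 11 same-numbered pairs 2 correlated above 0.1 in their deviations, and 4 of 11 LV arrays correlated best with their own number.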
